A study of Mus musculus with 16 samples.

Results

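Zscan4c, Zscan4d, Zscan4f, Tcstv1 and Tcstv3 belong to the genes that mouse embryos switch on at the 2-cell stage, and they were followed here through the epigenetic profiles of induced pluripotent stem cells (iPSCs) from kidney and tail. The 5 genes were taken by name and each had 1 row in both deposited tables, among 55471 genes with a row for CpG methylation and 43984 with a row for histone marks. The iPSCs came from mice with 4 transgenes, namely SLC34a1-GCE, the red reporter tdTomato, rtTAROSA (neo-in) and OKMS-250, which makes Oct4, Klf4, c-Myc and Sox2 inducible by doxycycline. All mice were given tamoxifen from an age of 6 weeks for 2 weeks and were used at 8 to 10 weeks. In proximal tubule cells (PTC), the source of lines PTC11 and PTC12, Cre was driven by the Slc34a1 promoter. Tail tip fibroblasts (TTF), the source of lines TTF1 and TTF4, received Cre from a plasmid that does not integrate. Every line was 1 picked clone that no longer needed doxycycline, and the labels speak of 2 separate mice. Each line has 1 deposited nanopore library for methylation and 1 deposited chromatin immunoprecipitation (ChIP-seq) library each for H3K36me3 and H3K4me3. The authors report that ChIP was done in duplicate for each line. With 1 library for each of these assays here, the line is the replicate, with n = 2 per origin. Both PTC libraries of H3K27me3 are labelled PTC11, and that mark was not compared between origins.

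Zscan4 proteins have a SCAN domain and zinc fingers, and are known for the elongation of telomeres in embryonic stem cells. The Tcstv genes encode small proteins of the 2-cell stage. In embryonic stem cell cultures both families are active in a small, changing fraction of cells that resemble the 2-cell embryo, and silent in the others. Dppa2 and Dppa4 act upstream of the factor Dux, which binds and activates Zscan4, whereas histone demethylases, H3K9 methyltransferases and chromatin assembly factors keep these genes silent. Methylation of CpGs near a transcription start site (TSS) usually goes with silence, H3K4me3 marks active starts, H3K36me3 marks transcribed gene bodies and H3K27me3 marks Polycomb repression. Each value here is a mean over a culture, so that a few cells in another state and a partial mark in all cells cannot be told apart.

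The genes lie in 2 clusters of copies (mm10, GENCODE annotation). Zscan4c (ENSMUSG00000054272) is at chr7:11005745-11010547 on the plus strand, Zscan4d (ENSMUSG00000090714) at chr7:11161374-11166159 on the minus strand and Zscan4f (ENSMUSG00000070828) at chr7:11397915-11402318 on the plus strand. Tcstv1 (ENSMUSG00000096284) is at chr13:119893388-119894785 on the minus strand and Tcstv3 (ENSMUSG00000095821) at chr13:120316878-120318178 on the plus strand. All 5 are annotated as protein coding, and their TSS lies in exon 1 of up to 4 exons in the Zscan4 genes and of up to 2 in the Tcstv genes. The annotated start differs between the methylation and histone tables by 0 to 39 bp for Zscan4c, Zscan4d, Zscan4f and Tcstv1, and by 689 bp for Tcstv3.

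The 250 bases before the RefSeq start sites of the 3 Zscan4 genes (GRCm38.p6, sense strand, 5′ to 3′) show how few CpGs the methylation values can rest on and how alike the copies are. CpGs are in capitals. The RefSeq start of Zscan4d lies 11 bases inside the gene as GENCODE gives it.
Zscan4c, chr7:11005495-11005744: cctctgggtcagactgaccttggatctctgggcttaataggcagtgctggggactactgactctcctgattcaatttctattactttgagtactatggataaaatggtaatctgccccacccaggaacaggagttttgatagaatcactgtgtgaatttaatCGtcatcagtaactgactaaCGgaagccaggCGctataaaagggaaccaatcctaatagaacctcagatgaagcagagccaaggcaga
Zscan4d, chr7:11166149-11166398: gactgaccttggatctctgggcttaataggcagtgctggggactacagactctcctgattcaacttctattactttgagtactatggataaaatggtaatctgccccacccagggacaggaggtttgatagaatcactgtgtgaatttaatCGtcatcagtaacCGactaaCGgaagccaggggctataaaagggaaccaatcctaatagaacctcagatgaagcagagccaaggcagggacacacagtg
Zscan4f, chr7:11397665-11397914: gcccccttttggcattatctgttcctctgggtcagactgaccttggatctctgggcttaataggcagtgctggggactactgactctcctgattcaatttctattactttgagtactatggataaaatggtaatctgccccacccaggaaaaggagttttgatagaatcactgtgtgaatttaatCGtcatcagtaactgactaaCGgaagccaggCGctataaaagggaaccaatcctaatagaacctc

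Each of these promoters held 3 CpGs, against a median of 6 over the 32851 promoters of the same length, 37.8% of which had 3 or fewer. All 3 held the letters TATAAA on the sense strand, beginning 54 bases before the start in Zscan4c, 65 in Zscan4d and 31 in Zscan4f. Of all promoters, 12.4% held TATAAA on either strand. When the promoters were set against each other at these letters, Zscan4f differed from Zscan4c at 1 of 227 bases, C128A, with positions counted from 1 at the 5′ end of the Zscan4c promoter as printed. Zscan4d differed from Zscan4c at 7 of 239 bases. Of these 7 substitutions T176C gave Zscan4d a CpG that Zscan4c lacked, and C194G took one away. Within 1 kb on both sides of the TSS, the region of the methylation values, there were 6 CpGs at Zscan4c, 7 at Zscan4d, 6 at Zscan4f, 9 at Tcstv1 and 6 at Tcstv3. The median over 50657 genes was 27, and between 2.89% and 9.47% of genes had fewer CpGs than a member.

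The copies share long stretches of sequence. Over the 2 kb around the TSS, Zscan4c and Zscan4f were 96.0% identical, Zscan4c and Zscan4d 89.0%, Zscan4d and Zscan4f 87.4%, and Tcstv1 and Tcstv3 95.7%. Sequence was called unique here when a run of 50 bases occurred once in chromosomes 1 to 19, X and Y, counting both strands. In the window from 1 kb before to 1 kb after the TSS, 19.5% of such runs were unique at Zscan4c, 16.1% at Zscan4f and 56.8% at Zscan4d, and 48.4% at Tcstv1 and 47.7% at Tcstv3. The promoters of 16 genes that silence 2-cell genes had a median of 98.9%. Zscan4c and Zscan4f were thus the members with the least unique sequence in this window.

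The lines differed before any single gene was considered. Averaged over all genes, methylation came to 0.372 and 0.482 in PTC11 and PTC12, and 0.379 and 0.649 in TTF1 and TTF4, as fractions of methylated CpGs, and TTF4 was the highest line at most genes. Methylation is therefore given as deposited and also centred, that is minus the mean of its line. Median H3K36me3, in RPKM (reads scaled to peak length and library size, less input), was 1.60 and 3.88 in PTC11 and PTC12, and 1.18 and 4.01 in TTF1 and TTF4. Among cell type markers, 7 of 8 for pluripotency had H3K4me3 in at least 1 line, with Esrrb as the exception. So did 2 of 5 proximal tubule markers and 5 of 5 fibroblast markers, against 49.5% of all genes. The presence of this mark thus did not by itself identify the cells. The number of fibroblast markers with H3K4me3 was 2 and 5 in PTC11 and PTC12, and 5 and 3 in TTF1 and TTF4. iPSCs were kept on mouse embryonic fibroblast feeder cells, and the part of feeder cells in the values was not tested. The files give no coverage or read counts, so the depth behind each value is unknown.

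Zscan4f was fully methylated in all lines but TTF1. Its fraction was 1 and 1 in PTC11 and PTC12, and 0.191 and 1 in TTF1 and TTF4. The TTF1 value lay 0.188 below the mean of its line, and 31.2% of genes in TTF1 were lower. In the other lines Zscan4f stood above 99.4% of genes in PTC11, 98.1% in PTC12 and 95.6% in TTF4. A value of 1 was held by 0.613% and 1.90% of genes in PTC11 and PTC12, and by 1.39% and 4.39% in TTF1 and TTF4, and 32 of 50657 genes were at 1 in at least 3 lines. The gap of 0.809 between the highest and the lowest line was matched or exceeded by 2.63% of all genes and by 7.08% of the 7260 genes with 10 or fewer CpGs within 1 kb.

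Zscan4c lay above the mean of its line in every line. Its fraction was 0.543 and 0.667 in PTC11 and PTC12, and 0.725 and 0.896 in TTF1 and TTF4, or 0.171, 0.185, 0.346 and 0.247 above the line means. Both TTF lines were above both PTC lines on either scale. That order was found at 20.5% of all genes as deposited and at 15.0% after centring, so that it does not set Zscan4c apart. Tcstv1 had the same order as deposited only and Zscan4d after centring only. The reverse, with both TTF lines below both PTC lines, was found at 3.36% of all genes as deposited and at 12.8% after centring. Zscan4f had it after centring only, because TTF4, at 1 as were both PTC lines, had the highest line mean subtracted.

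Zscan4d followed the mean of each line closely. Its fraction was 0.375 and 0.485 in PTC11 and PTC12, and 0.399 and 0.669 in TTF1 and TTF4. The centred values were 0.00296, 0.00306, 0.0200 and 0.0201 in the same order. TTF4 was its highest line on both scales, after centring only just, as at 75.4% of genes before and 26.0% after centring. It ranked in the middle of each line, with 38.5% to 52.8% of genes below it, and had the lowest mean of the 3 Zscan4 members at 0.482 over the 4 lines, against 0.708 for Zscan4c and 0.798 for Zscan4f.

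Tcstv1 was highest in TTF1, the line in which Zscan4f was lowest. Its fraction was 0.599 and 0.625 in PTC11 and PTC12, and 0.982 and 0.75 in TTF1 and TTF4. After centring the values were 0.227, 0.143, 0.603 and 0.101 above the line means, and TTF4 then fell below both PTC lines. Tcstv3 had no value in PTC11, and its fraction was 0.421 in PTC12, 0.348 in TTF1 and 0.880 in TTF4. Its centred values were -0.0608, -0.0301 and 0.231, so that only TTF4 lay above the mean of its line.

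**Figure D1:**
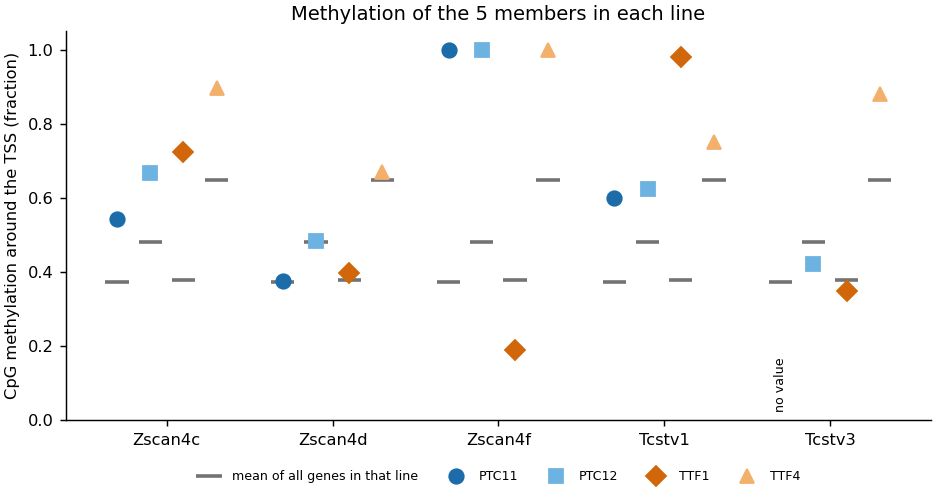
CpG methylation around the TSS (fraction, vertical axis) of the 5 members, 1 point per line (1 library each, without error bars), with a grey bar for the mean of all genes in that line. Zscan4d sits on the bars, Zscan4f is at 1 in 3 lines and at 0.191 in TTF1, and Tcstv3 has no value in PTC11.

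The cell of origin was compared with limma on the centred fractions over the 50657 genes with 4 values, with Benjamini-Hochberg adjustment over all of them. The lines are 2 against 2, and an exact permutation test on them could not go below p = 0.33. No member passed an adjusted p of 0.05, which 2 genes did over the whole table, or 0.00395%. Zscan4f had the lowest p of the members: PTC lines averaged 0.573 and TTF lines 0.0815 above the line means, a difference of TTF minus PTC of -0.492 (SE 0.134, 95% interval -0.761 to -0.223, limma adjusted p = 0.350). As deposited, TTF4 equalled both PTC lines at a fraction of 1. The difference left without TTF1 is therefore only that of the line means subtracted, and says nothing about Zscan4f. Without TTF1 the centred difference was -0.222. Without TTF4 it was -0.761 and passed (limma adjusted p = 0.00396), in a fit that called 0.448% of genes. Each of these fits leaves 1 TTF library, whose spread is assumed to be that of the PTC lines and of the other genes, so that the call without TTF4 rests on TTF1 alone.

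The intervals at the other members were wide. As deposited, the PTC and TTF lines averaged 0.430 ± 0.0778 and 0.534 ± 0.191 at Zscan4d and 0.612 ± 0.0183 and 0.866 ± 0.164 at Tcstv1 (SD, n = 2 lines each). The centred difference of TTF minus PTC was 0.119 at Zscan4c (95% interval -0.169 to 0.406), 0.0170 at Zscan4d (-0.289 to 0.323) and 0.167 at Tcstv1 (-0.125 to 0.458), each with a limma adjusted p of 1.00. The difference at Tcstv1 rested on TTF1, and without that line it was -0.0844. With genes admitted that had a value in only some lines of an origin, Tcstv3 gave 0.161 (SE 0.196, limma adjusted p = 1.00, n = 1 PTC line and 2 TTF lines).

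Gaps between lines were narrow mainly at genes rich in CpGs. Over the 7260 genes with 10 or fewer CpGs the median gap between the highest and the lowest line was 0.492. It was 0.446 at 11 to 20 CpGs, 0.429 at 21 to 40 and 0.315 at 41 to 80. Over the 9779 genes with more than 80 it was 0.141. Those genes also had low methylation, with medians from 0.0553 in TTF1 to 0.170 in TTF4. The part of that level in the gap was not tested. The gaps of Zscan4c (0.353), Zscan4d (0.294) and Tcstv1 (0.382) were below that median for genes with 10 or fewer CpGs, and that of Zscan4f was above it. Of all 50657 genes, 54.4% had a gap at least as large as Zscan4c, 64.5% as large as Zscan4d and 49.3% as large as Tcstv1.

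**Figure D2:**
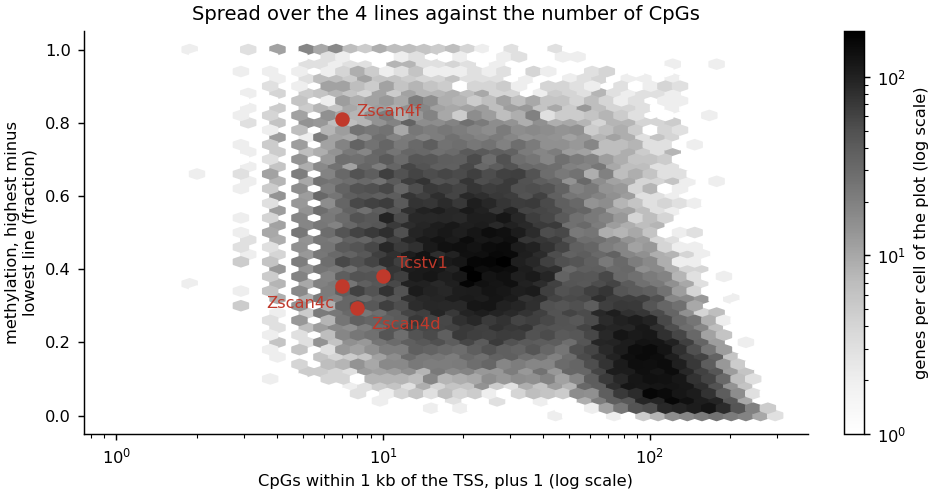
Gap in methylation between the highest and the lowest of the 4 lines (fraction, vertical axis) against the number of CpGs within 1 kb of the TSS plus 1 (log axis), with the density of 50657 genes in grey and 4 members in red. Gaps narrow at genes rich in CpGs, whose methylation is also low, and Zscan4f, at 0.809 with 6 CpGs, lies above the other members.

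The remaining Zscan4 copies did not share 1 pattern either. Zscan4-ps1 was at 0.800 and 0.50 in PTC11 and PTC12, and 0 and 0.773 in TTF1 and TTF4, and Zscan4e at 0.875, 0.587, 0.340 and 0.889, so that TTF1 was the lowest line in both, as at Zscan4f. Zscan4a was highest in TTF1, with 0.493, 0.50, 0.969 and 0.717 in the same order. Zscan4-ps3 was lowest in PTC11, with 0.222, 0.667, 0.692 and 1. Zscan4b was at 0.381 in PTC11, 0.75 in PTC12 and 0.684 in TTF4, and Zscan4-ps2 at 0.455 in PTC11 and 0.75 in PTC12, with no value in the lines not given. TTF1 was the lowest line at 2 of the 4 copies with all values, against 41.4% of all genes. These copies were 86.7% to 98.1% identical to Zscan4c or Zscan4d over the 2 kb around the TSS. How reads were divided between the copies was not tested.

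Between Zscan4c and Zscan4f, over 396.574 kb, the methylation table lists 22 other genes, nearly all with predicted (Gm) names. Their median was 0.617 and 0.730 in PTC11 and PTC12, and 0.466 and 0.876 in TTF1 and TTF4. In each line this was higher than the median of all genes, which was 0.385, 0.539, 0.374 and 0.770. The neighbour closest to Zscan4f, Gm18123, was at 0.478 and 0.711 in PTC11 and PTC12, and 0.839 and 0.732 in TTF1 and TTF4, so that the order of the lines at Zscan4f did not extend to it. Between Tcstv1 and Tcstv3, over 424.791 kb, 21 other genes had medians of 0.330, 0.626, 0.316 and 0.800, and the PTC11 and TTF1 medians were below those of all genes. Here Gm21181, the nearest to Tcstv1, was at 0.450 and 0.789 in PTC11 and PTC12, and 0.467 and 0.923 in TTF1 and TTF4, and TTF1 was not the highest line.

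**Figure D3:**
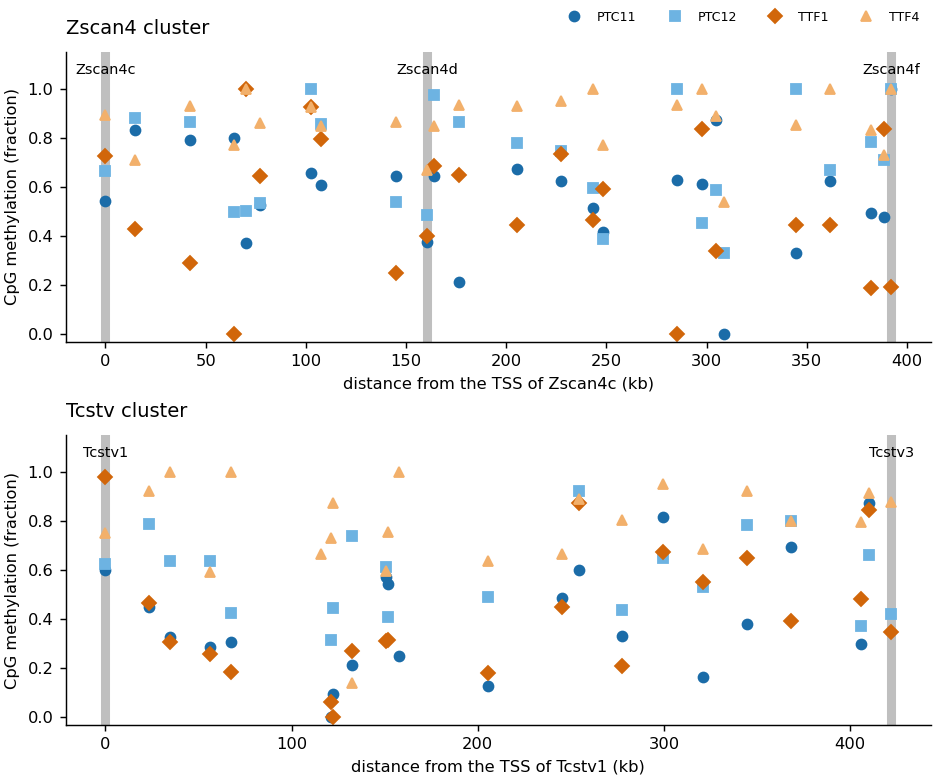
CpG methylation (fraction, vertical axis) of all genes in the Zscan4 and Tcstv clusters by distance of their TSS from the first member (kb, horizontal axis), 1 point per gene and line, with grey bars at the members. The order of the lines changes from gene to gene in both clusters, and TTF4 is mostly the highest.

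No member carried a histone value. In all 12 ChIP-seq libraries, 0 of 60 combinations of member and library had an H3K4me3, H3K36me3 or H3K27me3 value. A gene without a value had no peak kept at its TSS (H3K4me3, H3K27me3) or gene body (H3K36me3), and the table does not tell an absent mark from one that could not be placed. Over all 43984 genes, 50.5% had no H3K4me3 value in any line, 29.1% no H3K36me3 value, 99.6% no H3K27me3 value and 26.6% none of the 3, so that a gene without any mark was not rare. H3K27me3 had a value at 192 genes in all and says little about any single gene.

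The members without histone values differed in how much of their sequence is unique. From 2 kb before to 3 kb after the TSS, 14.9% of 50-base runs were unique at Zscan4c, 59.3% at Zscan4d, 12.5% at Zscan4f, 55.5% at Tcstv1 and 65.2% at Tcstv3. Over the gene bodies the shares were 10.2%, 50.8%, 3.97%, 58.9% and 49.7% in the same order. The part of this in the missing values was not tested. Other 2-cell genes with an H3K36me3 value had a median of 42.2% unique runs over the gene body (n = 14), and those without had 51.1% (n = 11).

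**Figure D4:**
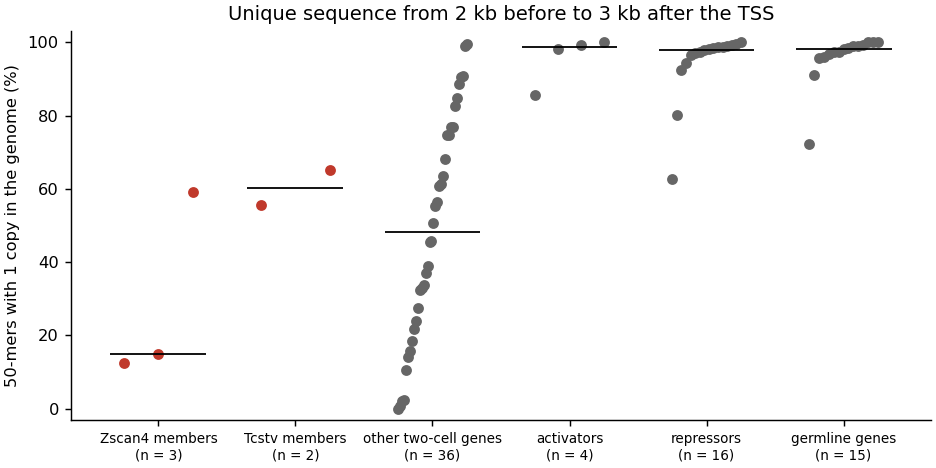
Share of 50-base runs with 1 copy in the genome (percent, vertical axis) from 2 kb before to 3 kb after the TSS, 1 point per gene, with a black bar for the median of each list. Zscan4c and Zscan4f lie below 20%, the other members between 55.5% and 65.2%, and nearly all repressors and germline genes above 90%.

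Some other rows of the clusters had values. Of 8 other rows of the histone data between Zscan4c and Zscan4f, 2 had an H3K4me3 value in some line and 2 an H3K36me3 value. A value of 0 was counted. The H3K4me3 values were 0.335 RPKM in PTC12 at XLOC_054117, a transcript with no gene name, and 0 in TTF1 at XLOC_054119. Of 20 other rows in the Tcstv cluster, 3 had an H3K4me3 value, 8 an H3K36me3 value and 1 an H3K27me3 value. Here too 0 was counted, as for H3K36me3 at AC238811.2 in PTC12. AC239678.1 had H3K36me3 of 2.48 and 6.17 RPKM in PTC11 and PTC12, and 1.54 and 3.27 in TTF1 and TTF4, and H3K4me3 of 0.326 in PTC12 and 1.09 in TTF1. The only H3K27me3 value was 0.857 RPKM at AC238811.3 in 1 of the PTC11 libraries.

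The members were compared with a list of 38 other genes of the 2-cell stage, of which 36 had a row for methylation and 27 had all 4 values. Their median was 0.509 and 0.674 in PTC11 and PTC12, and 0.554 and 0.797 in TTF1 and TTF4, between fully methylated and unmethylated in each line. The highest means over the lines were 0.781 at Usp17la and 0.781 at Usp17lc, both of a family of deubiquitinating enzymes, and 0.75 at Tdpoz5. The lowest were 0.307 at Tmem92, 0.352 at AA792892 and 0.372 at D5Ertd577e. In limma 0 of 27 passed the adjusted threshold. At an unadjusted p under 0.05 there were 7 of 27, a larger share than the 2392 of 50657 among all genes. These 7 went in both directions and include copies of the same families. The median centred difference of TTF minus PTC was -0.118, with 9 genes above 0 and 18 below, and over all genes it was -0.0100.

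H3K4me3 was nearly absent from the table at these 2-cell genes as well. Of 25 with a row there, 1 had H3K4me3, or 4%, against 49.5% of all genes. With values of 0 counted, H3K36me3 was listed in at least 1 line at 14, or 56%, against 70.9% of all genes. H3K27me3 was listed at none, against 0.437%. The gene with H3K4me3 was Sp110, which encodes a nuclear body protein, with 1.72 RPKM in PTC12 and 0.642 in TTF4. Its H3K36me3 was 2.11 and 5.94 RPKM in PTC11 and PTC12, and 2.06 and 3.26 in TTF1 and TTF4. In limma on log2(RPKM + 1), 0 of 5 with H3K36me3 in all lines passed, where 0.112% of all genes passed. An unadjusted p under 0.05 was found at 1 of the 5, and at 116 of all 17039 genes.

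Of the listed activators of Zscan4, Dppa2 and Dppa4 had low methylation and H3K4me3 in all lines but TTF4. Dppa4, a chromatin protein that acts with Dppa2, was at 0 and 0.103 in PTC11 and PTC12, and 0.0504 and 0.759 in TTF1 and TTF4. Its H3K4me3 was 3.63 RPKM in PTC11, 2.97 in PTC12 and 4.30 in TTF1, with no value in TTF4. Dppa2 had fractions of 0.0514, 0.190, 0.153 and 0.608 in the same order, and H3K4me3 of 4.24, 2.52 and 3.57 RPKM in PTC11, PTC12 and TTF1, again with no value in TTF4. TTF4 thus stood apart from TTF1 and from both PTC lines at these genes.

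The rise in TTF4 at Dppa4 was larger than that of most genes. The TTF4 fraction exceeded the mean of the other lines by 0.707 at Dppa4 and by 0.476 at Dppa2, where the median over all genes was 0.231. Such a gap was reached by 1.03% of genes for Dppa4, by 10.2% for Dppa2 and by 1.22% for Zfp42. Of 14824 genes with H3K4me3 in the other 3 lines, 7.52% had no value in TTF4. H3K36me3 at Dppa4 was 0.876 and 7.06 RPKM in PTC11 and PTC12, and 1.19 and 6.65 in TTF1 and TTF4, so that TTF4 had a value there. In the TTF minus PTC comparison neither gene passed (limma adjusted p = 1.00 for both), and the TTF lines lay far apart.

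Tbx3 and Nelfa were listed as further activators. Tbx3, a T-box transcription factor, was low in every line, between 0.0174 and 0.0796, with H3K4me3 of 3.57, 6.12, 5.84 and 3.42 RPKM in PTC11, PTC12, TTF1 and TTF4. Nelfa, a subunit of the negative elongation factor, was at 0.0922, 0.0349, 0.00876 and 0.303 in methylation, highest in TTF4, and was not listed by that name in the histone table. For the 4 activators, 0 passed limma on methylation and 0 had an unadjusted p under 0.05, against 2392 of all 50657 genes.

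**Figure D5:**
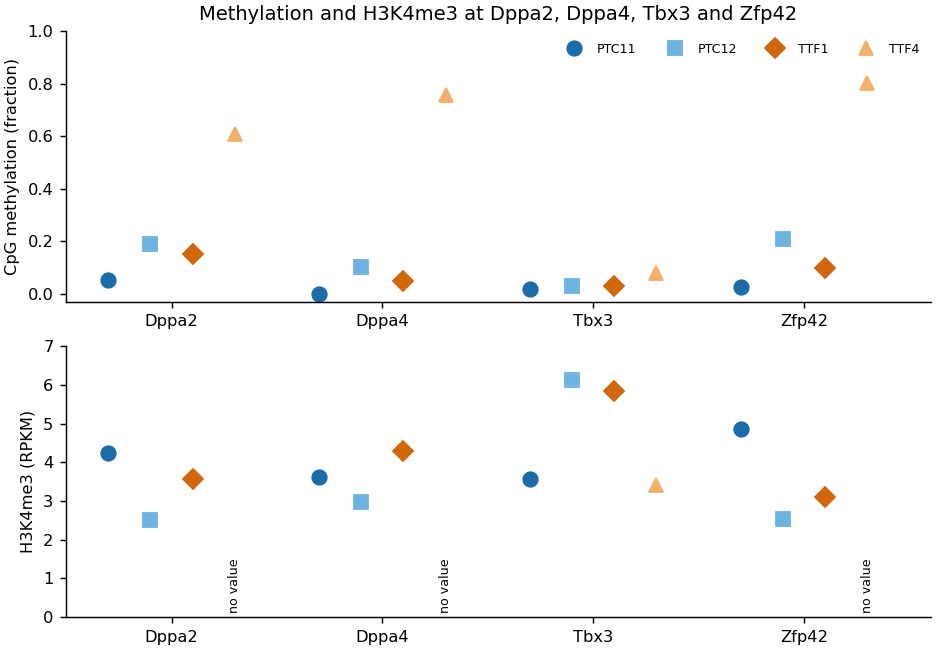
CpG methylation (fraction, upper panel) and H3K4me3 (RPKM, lower panel) at Dppa2, Dppa4, Tbx3 and the pluripotency gene Zfp42 in each line, 1 library per point. TTF4 is the high point in methylation at Dppa2, Dppa4 and Zfp42 and has no H3K4me3 value there, whereas Tbx3 has low methylation and a value in all lines.

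The repressors of the 2-cell programme had the marks of active genes in all lines. Of 16 listed, 16 had H3K4me3 in at least 1 line and 15 in all, and 16 had H3K36me3 in all lines. Their median methylation was 0.0446 and 0.0595 in PTC11 and PTC12, and 0.0427 and 0.159 in TTF1 and TTF4. The highest means were 0.693 at Dnmt1, the maintenance DNA methyltransferase, 0.531 at Trim28, a corepressor, and 0.179 at Setdb1, an H3K9 methyltransferase. The lowest were 0.00724 at Zmym2, 0.00856 at Ncl and 0.0280 at Rif1. Dnmt1 was also the 1 repressor without H3K4me3 in some lines, with 1.79 RPKM in PTC12 alone. Trim28 had H3K4me3 of 3.89 and 4.54 RPKM in PTC11 and PTC12, and 5.08 and 3.65 in TTF1 and TTF4. Within 1 kb of the TSS used here there were 28 CpGs at Dnmt1 and 15 at Trim28. Every other listed repressor had more. Whether Dnmt1 and Trim28 have another start with lower methylation was not tested.

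No repressor passed the adjusted threshold between PTC and TTF lines. In limma 0 of 16 passed for methylation, 0 of 15 for H3K4me3, where 0.481% of all genes passed, and 0 of 16 for H3K36me3. At an unadjusted p under 0.05 there were 0, 1 and 0 of them. Among all genes there were 2392 of 50657, 134 of 13709 and 116 of 17039 in the same order. Setdb1 was the 1 with an unadjusted p under 0.05, and its H3K4me3 was 1.19 and 1.37 RPKM in PTC11 and PTC12, and 2.12 and 1.81 in TTF1 and TTF4 (limma adjusted p = 0.726).

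Germline genes, known from other work to be silenced by DNA methylation, served as a comparison. Silence was not measured here, in them or in the members. Over 15 such genes the mean fraction was 0.400 and 0.598 in PTC11 and PTC12, and 0.405 and 0.902 in TTF1 and TTF4. The mean of the 3 Zscan4 members was 0.639, 0.717, 0.438 and 0.855, and the mean of the Tcstv members with a value was 0.599, 0.523, 0.665 and 0.815. In PTC11 the Tcstv figure is Tcstv1 alone, so that it cannot be set against the other lines. The germline genes had H3K4me3 at 1 and 15 of the 15 genes in PTC11 and PTC12, and at 11 and 0 in TTF1 and TTF4, unlike the Zscan4 and Tcstv members, which had none in any line. The germline sequence was mostly unique, with a median of 98.1% of 50-base runs from 2 kb before to 3 kb after the TSS. Germline genes also had a median of 66 CpGs within 1 kb of the TSS, against 6 to 9 at the members. The part of either difference in the presence of H3K4me3 was not tested.

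The genes with the methylation profile most like the Zscan4 mean, by Euclidean distance over the 4 lines, were Mir6984 on chromosome 19 (distance 0.00949), Gm8930 on chromosome 6 (0.0236) and Abca15 on chromosome 7 (0.0338), out of 50657. Mir6984 was at 0.645, 0.712, 0.438 and 0.851 in PTC11, PTC12, TTF1 and TTF4. Nearest to the Tcstv mean, which in PTC11 is Tcstv1 alone, were Gm4757 on chromosome 19 (0.0261), Gm2308 on chromosome 7 (0.0352) and Slc2a7 on chromosome 4 (0.0394). None of the 6 lay in either cluster, and the means hide the disagreement between members described above.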

How the data were processed

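CpG methylation and 3 histone marks were measured in 4 iPSC lines, in 16 libraries. For methylation the authors deposited a fraction by gene and line. They called bases with Guppy, aligned nanopore reads to mm10 with minimap2 2.17-r941, called CpGs with Nanopolish, and averaged 300 bp windows moved by 30 bp within 1 kb of the TSS. For the histone marks the authors deposited mean RPKM by gene and library. Reads were aligned with Bowtie2 2.1.0, peaks were called per library against input with MACS2 2.0.10, reads were counted with bedtools 2.17.0, and input RPKM was subtracted. Neither table gives depth, and precision was taken from the spread between lines, so that p-values measure only that spread.

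Single genes were tested over whole tables with limma 3.58.1 in R 4.3.3 (lmFit, eBayes with a trend), on fractions minus the line mean or on log2(RPKM + 1), which understates changes of low values. Genes with a value in all 4 lines entered, with Benjamini-Hochberg adjustment. The step was also run on simulated data, mostly with less spread than the real lines, which does not measure its power here. CpGs, 50-base runs and identities were computed from GRCm38.p6, the same build, with Python 3.11.15, and promoters came from RefSeq, matching 3 of 5 members by symbol. ChIP-seq read length is not given in the sources used here, and 50 bases were chosen for this work. Members and lists were chosen with earlier results of these data known. Named by rule were the members, the genes between them, the genes of each list with the 3 highest and 3 lowest mean fractions, and the 3 nearest profiles. Zscan4a, Zscan4b, Zscan4-ps2 and Zscan4-ps3, which do not lie between the members, were named as further Zscan4 copies. Named after their values were seen were Sp110, Setdb1 for H3K4me3, Gm18123, Gm21181, Zfp42, Esrrb, Pou5f1 and Nanog. Alternatives varied centring, normalization, pseudocount, filters, the trend and each line left out.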

Additional observations from a re-analysis of the deposited data

How the results depend on the processing

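No paired analysis was possible because PTC and TTF lines have no line number in common. The number of genes that passed for methylation was 2, with 1 higher in TTF. It was 0 without centring, 52 with the median subtracted (17 higher in TTF and 35 lower), 0 with quantile normalization, 1 without a variance trend, 4 with genes that had a value in at least 1 line of each origin, 9 without chromosomes X and Y (8 of them lower in TTF), and 0 to 1020 with 1 line left out (1020 without TTF1, 227 without TTF4, 5 without PTC11 and 0 without PTC12). For H3K4me3 it was 66, and became 102 with a pseudocount of 0.1 and 59 to 108 with 1 line left out. For H3K36me3 it was 19, and became 44 with a pseudocount of 0.1 and 1 to 31 with 1 line left out. For both marks it was 0 with missing values set to 0, with a mean of at least 1 RPKM, with quantile normalization and without a trend. Where none passed, an unadjusted p under 0.05 was found at 1006 (no centring), 2438 (quantile) and 1786 genes (without PTC12) for methylation, at 128, 14, 317 and 3 genes for H3K4me3 and at 24, 4, 502 and 4 genes for H3K36me3, in the order just given. The causes were not tested. At the members, Zscan4d turned from 0.0170 to -0.00621 with the median subtracted and to -0.0178 with quantile normalization, Tcstv1 ranged from -0.0844 (without TTF1) to 0.418 (without TTF4) with 1 line left out, and Zscan4f passed only without TTF4 (adjusted p from 0.00396 to 1.00 over its alternatives, limma). Zscan4c kept its direction and did not pass in any of 10 alternatives. The nearest profiles cannot change with centring, which moves gene and family mean alike. Without coverage, a fraction over 6 to 9 CpGs carries a counting error that could not be given.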

Other observations

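Of 8 listed pluripotency genes, TTF4 had the highest methylation of the 4 lines at 3, where it did at 75.4% of all genes. Of 7 with H3K4me3 in the other 3 lines, 1 had no value in TTF4, Zfp42, against 7.52% of all such genes. Of 8 with H3K36me3 in the other 3 lines, 3 had no value in TTF4 (Pou5f1, Nanog and Zfp42), against 11.1% of all such genes. Zfp42, a zinc finger gene used as a marker of naive pluripotency, had fractions of 0.0284 and 0.209 in PTC11 and PTC12, and 0.100 and 0.803 in TTF1 and TTF4. The TTF4 value exceeded the mean of the other lines by 0.691, a gap reached by 1.22% of genes. H3K4me3 at Zfp42 was 4.86 RPKM in PTC11, 2.54 in PTC12 and 3.11 in TTF1, with no value in TTF4. Pou5f1 and Nanog had H3K4me3 in all 4 lines. These values were not compared by a test, since TTF4 is 1 library per assay, and Zfp42 was named after its values were seen.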
